A study of Mus musculus with 6 samples.

Results

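The genes described here encode the machinery that shortens, uncaps, silences and degrades mRNA in the cytoplasm, much of which gathers in processing bodies (P-bodies). They were the 42 genes of a list of decapping, deadenylation, silencing and decay factors, matched by gene name to the deposited tables, out of 21528 genes listed in any library. All 42 were found, and all 42 passed the filter on low values.

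The study asked whether the E3-ligase TRIM24 acts on P-body proteins and on the stability of *Pparg* mRNA in the liver. The comparison made here is of the mRNA levels of the decay genes themselves between livers with the intact and the inactive ligase. RNA was sequenced from the whole liver of 3 wild-type (WT) mice and 3 TRIM24 C52/55A knockin mice (knockin below), 1 library per mouse. All 6 mice had the strain label C57BL/6, were 5 months old and had been fed a high-fat diet (60% of calories from fat) for 3 months. The knockin changes cysteines 52 and 55 of the RING domain to alanine in every cell that expresses *Trim24*, and it is therefore not specific to hepatocytes.

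A P-body is a cytoplasmic granule of protein and untranslated mRNA without a membrane. Decay of most mRNAs begins with removal of the poly(A) tail by the PAN2-PAN3 and CCR4-NOT nucleases. The LSM1-7 ring and PATL1 then bind the shortened end and recruit the decapping enzyme DCP2 with its cofactors, and XRN1 degrades the uncapped body from the 5′ end. Argonaute proteins with TNRC6, and zinc-finger proteins of the ZFP36 family, bring chosen mRNAs to this machinery.

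Values were FPKM, fragments counted for a gene and corrected for transcript length and library size, which allows levels of different genes to be compared per length. Fold changes are log2 differences, knockin minus WT, on log2(FPKM + 1), on which the change of a gene of low FPKM appears smaller than it is. A gene was called changed at a p-value under 0.05 by limma after Benjamini-Hochberg adjustment over 12225 genes. By this rule 7.72% of all genes tested were called, with 1.64% higher in knockin livers and 6.09% lower. The numbers behind these shares were 200 and 744 genes, and they became 250 and 406 when libraries were scaled by the median of ratios. With 1 library left out, the share called ran from 2.4% without knockin replicate 1 (2.46% without WT replicate 3, 2.55% without WT replicate 1) to 10.5% without knockin replicate 2. The median fold change of all genes was -0.08 and moved to -0.13 with TPM and to 0.01 with median-of-ratios or quantile scaling.

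The libraries of each group were alike in depth, between 0.959 and 1.03 times WT replicate 1 as estimated from the steps between low values. *Trim24* itself had a fold change of 0.14 (adjusted p = 0.713), but its FPKM does not check the labels, since the knockin alters codons only. *Pparg*, which encodes a nuclear receptor of lipid storage, had 9.42, 5.55 and 8.39 FPKM in WT livers and 1.90, 2.27 and 2.71 FPKM in knockin livers. Hepatocyte genes were high in all 6 libraries, and 5 of these markers summed to between 11971 and 14323 FPKM. WT replicate 1 stood apart by genes of red blood cells, 5 of which summed to 1800 FPKM beside 522 to 939 FPKM in the other 5 libraries. The 4 globin genes among them made up this excess, whereas *Alas2*, the erythroid gene of heme synthesis, was at 52.8 FPKM in that library and at 53.9 to 86.7 FPKM in the others. In knockin replicate 2 the adipocyte genes *Adipoq*, *Plin1* and *Lep* reached 4.55, 3.32 and 3.98 FPKM, and no other library passed 0.127 FPKM for any of the 3. *Retn*, which was under the filter, was at 1.59 FPKM there and at 0 in the other 5 libraries. *Cfd* (2.54 FPKM) and *Cidec* (6.12 FPKM) lay below all 3 WT libraries there but were the highest of the knockin group. Knockin replicates 1 and 3 had 0.112 and 0.821 FPKM for *Cfd* and 0.663 and 2.12 FPKM for *Cidec*. The sum of 6 adipocyte markers in knockin replicate 2, 22.1 FPKM, lay within the WT range of 18.6 to 29.3 FPKM. In knockin replicates 1 and 3 this sum was 0.774 and 2.94 FPKM. Without knockin replicate 2 *Zfp36* was still the only call among the 42 genes. Of the markers of 9 cell types read here, *Cps1* of hepatocytes was called higher, and *Lyve1* of endothelium and *Cidec*, which fatty hepatocytes express too, were called lower.

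Among the 42 genes, 1 was called (2.38%, beside 7.72% of all genes), and it was *Zfp36*, which was lower in the knockin liver. The median fold change of the 42 was close to 0 (-0.0046), with 23 estimates lower (54.8%, beside 65.5% of all genes) and 19 higher. That balance followed the scaling, with 29 of 42 lower with TPM and 13 of 42 lower with the median of ratios. An unadjusted p-value under 0.05 was found for 5 genes (11.9%, beside 23.6% of all genes), namely *Lsm2*, *Lsm3*, *Tnrc6a*, *Pan2* and *Zfp36*. WT and knockin libraries did not overlap for 12 genes (28.6%, beside 28.9% of all genes). Of these, 5 were higher (6.31% of all genes were) and 7 were lower (22.5% of all genes were). On the log2(FPKM + 1) scale the 95% interval of 39 of the 42 genes stayed within 0.58 in both directions, and the 3 genes whose interval went beyond it were *Zfp36*, *Lsm3* and *Lsm5*. Because of the added 1, these intervals do not bound the fold in FPKM itself.

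**Figure D1:**
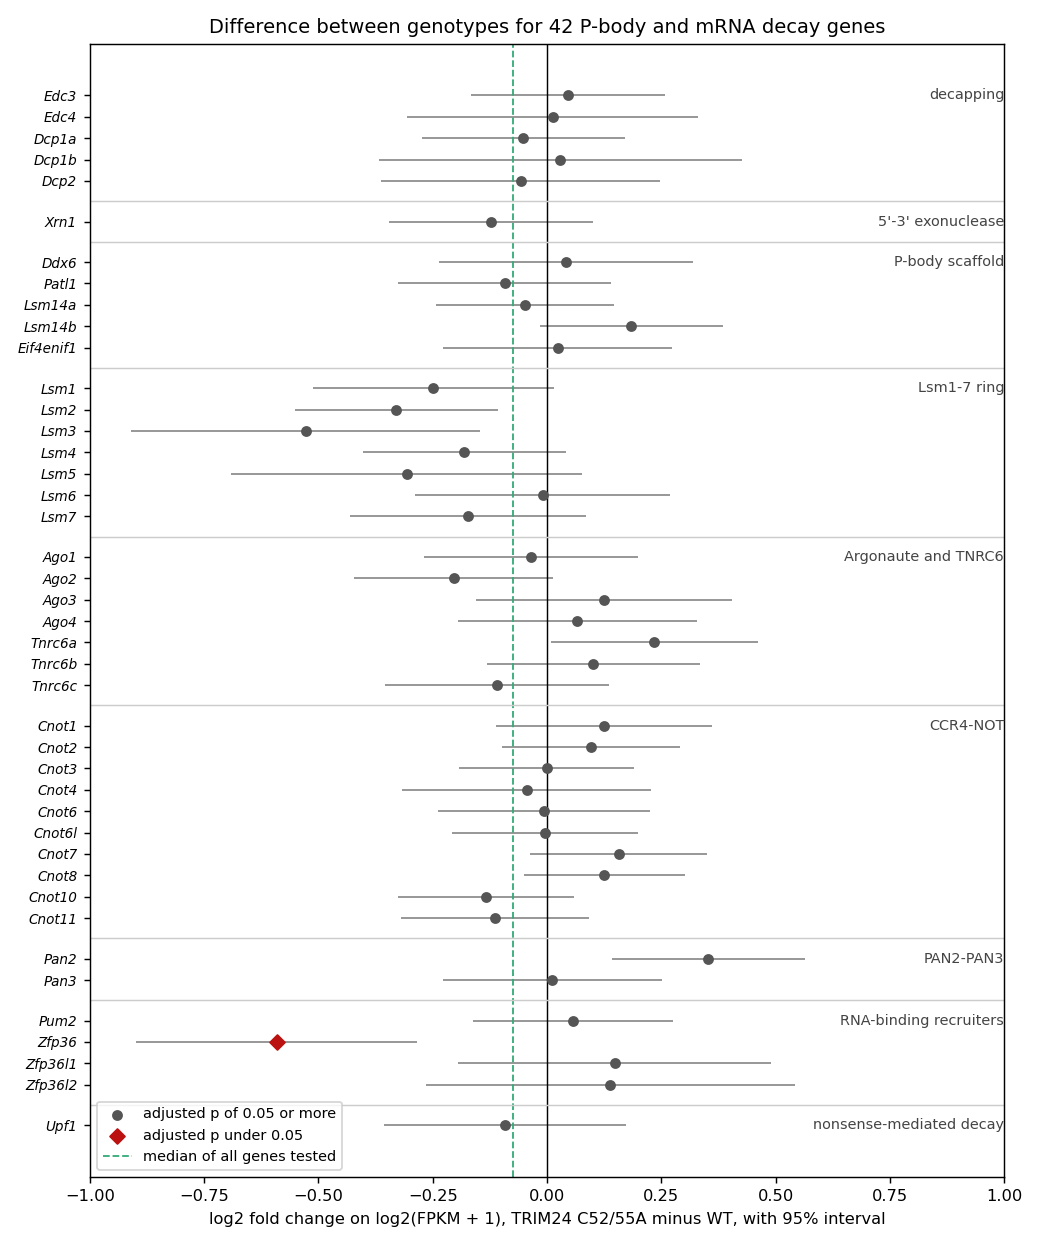
Log2 fold change on log2(FPKM + 1), knockin minus WT, of the 42 genes ordered by complex, with the 95% interval from limma as horizontal bars. The diamond for *Zfp36* is the only call, all 7 LSM1-7 subunits lie left of 0, and the dashed line is the median of all genes tested (-0.08).

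The levels themselves ran from 0.512 FPKM for *Ago4* in WT replicate 3 to 85.2 FPKM for *Zfp36l1* in WT replicate 2. Replicates were close to each other, with a median coefficient of variation of 7.61% in WT and 7.91% in knockin livers. The RNA-binding recruiters *Zfp36l1* and *Zfp36* stood at the top by their WT means, followed by the deadenylase *Cnot8* and the ring subunits *Lsm6*, *Lsm4* and *Lsm7*. The Argonautes *Ago3* and *Ago4*, the decapping cofactor *Dcp1b* and the exonuclease *Xrn1* had the lowest levels, near or below 1 FPKM. For the 42 genes the fragments behind the lowest value were estimated at 21 to 2786 from the FPKM and the transcript length.

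**Figure D2:**
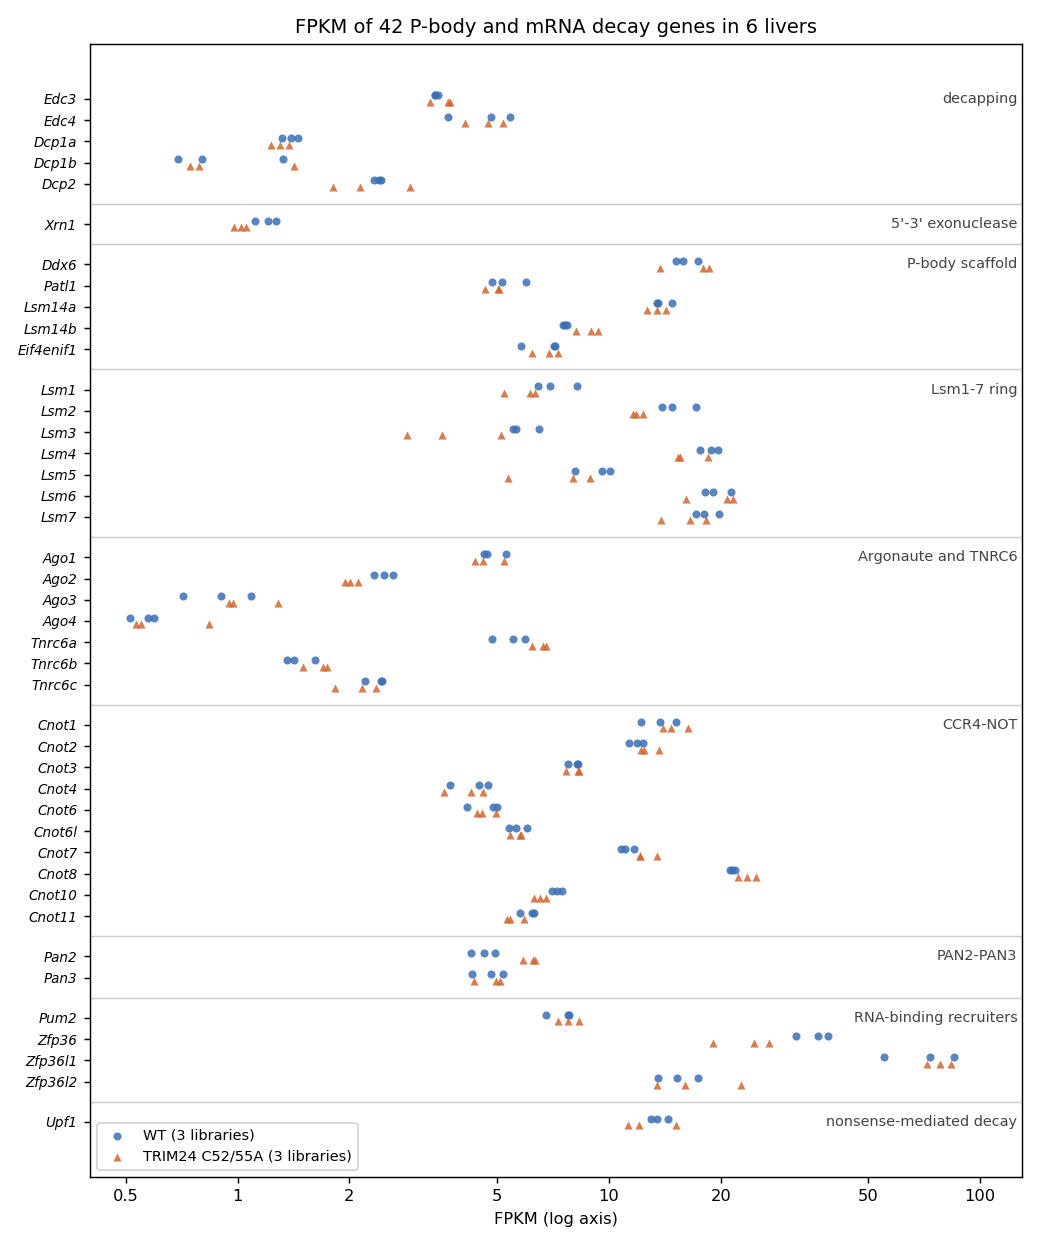
FPKM (log axis) of the 42 genes by complex in 3 WT livers (circles) and 3 knockin livers (triangles), 1 point per library. The groups overlap for most genes and lie apart for 12. Among these 12, the triangles of *Zfp36* and *Lsm2*, for example, lie left of the circles and those of *Pan2* and *Tnrc6a* lie right of them.

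RNA-binding recruiters select mRNAs by short motifs. *Zfp36* encodes tristetraprolin, which binds AU-rich elements and recruits CCR4-NOT, and it is an immediate early gene whose transcription rises within minutes of serum, insulin or inflammatory signals. The sequences upstream of the RefSeq start were read for *Zfp36*, for its paralog *Zfp36l1*, and for *Pan2*, which came nearest to a call among the other genes. They are shown because *Zfp36* and *Zfp36l1* differed in their values and *Pan2* had the largest higher estimate. Capitals mark matches on either strand to the motifs searched, namely the CArG box of serum response factor, the GC box as GGGCGG, the CCAAT box, the TATA box as TATAAA, the cyclic AMP response element as ACGTCA, the STAT element as TTCNNNGAA and the E-box as CACGTG.
Zfp36: ccccaggCCGCCCCATAAAAGGagaaagct
Zfp36l1: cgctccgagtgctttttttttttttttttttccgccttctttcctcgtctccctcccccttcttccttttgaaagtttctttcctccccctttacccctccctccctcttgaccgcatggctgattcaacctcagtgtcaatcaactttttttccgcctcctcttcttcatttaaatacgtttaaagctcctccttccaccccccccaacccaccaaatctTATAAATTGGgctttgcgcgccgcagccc
Pan2: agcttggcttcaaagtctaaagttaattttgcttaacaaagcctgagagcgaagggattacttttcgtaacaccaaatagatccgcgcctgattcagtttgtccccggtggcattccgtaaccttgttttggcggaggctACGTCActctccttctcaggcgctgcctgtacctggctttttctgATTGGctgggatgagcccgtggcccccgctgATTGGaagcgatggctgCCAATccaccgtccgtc
The sequences are RefSeq's on GRCm38.p6, 5′ to 3′ on the strand of each gene. That of *Zfp36* is chr7:28379269-28379298 on the minus strand, 30 bases from 70 to 41 before the start. Those of *Zfp36l1*, chr12:80113014-80113263 on the minus strand, and of *Pan2*, chr10:128303085-128303334 on the plus strand, are the 250 bases before the start. GENCODE M21 also has a longer *Zfp36* transcript, on which the printed bases lie in the 5′ untranslated region.

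In *Zfp36* a CArG box began 58 bases before the start and shared 1 base with a GGGCGG match on the other strand. A TTCNNNGAA match, outside the printed bases, lay 17 to 9 bases before the start. A CArG box was found in 1.47% of 32851 promoters of 250 bases, and in 1 of the 34 genes described here that had an entry, which was *Zfp36*. In *Zfp36l1* a TATAAA match overlapped a CCAAT match on the other strand. In *Pan2* there were 3 CCAAT matches and 1 ACGTCA match. Over all promoters TATAAA was found in 12.4%, CCAAT in 33.8%, GGGCGG in 32.7%, TTCNNNGAA in 7.02% and ACGTCA in 6.47%. Such matches describe letters, and binding was not measured here.

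*Zfp36* had 36.5, 39.0 and 31.9 FPKM in the WT livers, by replicate number as in all values below, and 19.1, 27.1 and 24.6 FPKM in knockin livers. Every knockin library lay below every WT library, and the mean fell from 35.8 ± 3.57 to 23.6 ± 4.07 FPKM (SD, n = 3). The log2 fold change was -0.59 (SE 0.13, 95% interval -0.90 to -0.28, adjusted p = 0.035 by limma). The exact two-sided permutation test on FPKM gave p = 0.10, the smallest that 3 against 3 allows. The call was close to the threshold. Over 15 alternative settings the fold change stayed between -0.69 and -0.45, the adjusted p ranged from 0.0198 to 0.114, and the gene was called in 5. Leaving out knockin replicate 2 kept the call (adjusted p = 0.0224), and leaving out any other library ended it, with an adjusted p of 0.114, 0.113 and 0.0693 without WT replicates 1, 2 and 3, and of 0.0888 and 0.0577 without knockin replicates 1 and 3.

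The paralogs of *Zfp36*, which bind the same AU-rich elements, were not called. *Zfp36l1*, the most abundant of the family in liver, had 73.1, 85.2 and 55.0 FPKM in WT and 77.8, 72.1 and 83.5 FPKM in knockin livers (fold change 0.15, adjusted p = 0.610). All 3 knockin values lay within the WT range. *Zfp36l2* had 17.4, 15.3 and 13.6 FPKM in WT and 16, 22.6 and 13.5 FPKM in knockin livers (fold change 0.14, adjusted p = 0.697), and replicate 2 held the highest value. The order *Zfp36l1* over *Zfp36* over *Zfp36l2* was the same in 6 of 6 libraries. The ratio of *Zfp36* to *Zfp36l1* was 0.50, 0.457 and 0.581 in WT and 0.246, 0.375 and 0.294 in knockin livers, and these ranges did not overlap. This ratio was given no test and is no separate result, since its numerator is the gene that was called. Its denominator is uncertain by the shared sequence described below. *Pum2*, a Pumilio protein that binds a different element, ranged from 6.77 to 8.30 FPKM with both groups interleaved.

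Other gene groups were read beside *Zfp36*. Of 19 other immediate early genes tested, 1 was called, the AP-1 subunit *Jun*, with 9.33, 15.9 and 10.8 FPKM in WT and 4.71, 7.19 and 6.47 FPKM in knockin livers (fold change -0.85, adjusted p = 0.0397). This 1 call is 5.26% of the list, beside 7.72% of all genes, and *Jun* was called in 6 of 15 alternatives. The 19 genes had a median fold change of -0.08, the same as all genes, with 12 estimates lower (63.2%, beside 65.5%) and 7 higher. WT replicate 2 was the highest WT library for 17 of the 19. *Nr4a1* had 1.15, 9.98 and 1.48 FPKM in WT and 0.591, 2.18 and 0.677 FPKM in knockin livers, and its fold change of -0.93 became -0.18 without WT replicate 2. *Atf3* and *Dusp1* had fold changes of -0.83 and -0.71 (-0.55 and -0.49 without that library) without passing the test, and *Egr1*, with 3.09 to 36.0 FPKM among the WT livers alone, had 0.13. All 7 Kupffer cell and macrophage markers had lower estimates, as did 65.5% of all genes, and 0 were called, and their sum was 163 to 213 FPKM in WT and 141 to 189 FPKM in knockin livers. None of these 7 markers was at 0 in any library. The part of either group in the level of *Zfp36* was not tested, and in RNA of whole liver fewer cells of a type cannot be told apart from less RNA per cell.

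**Figure D3:**
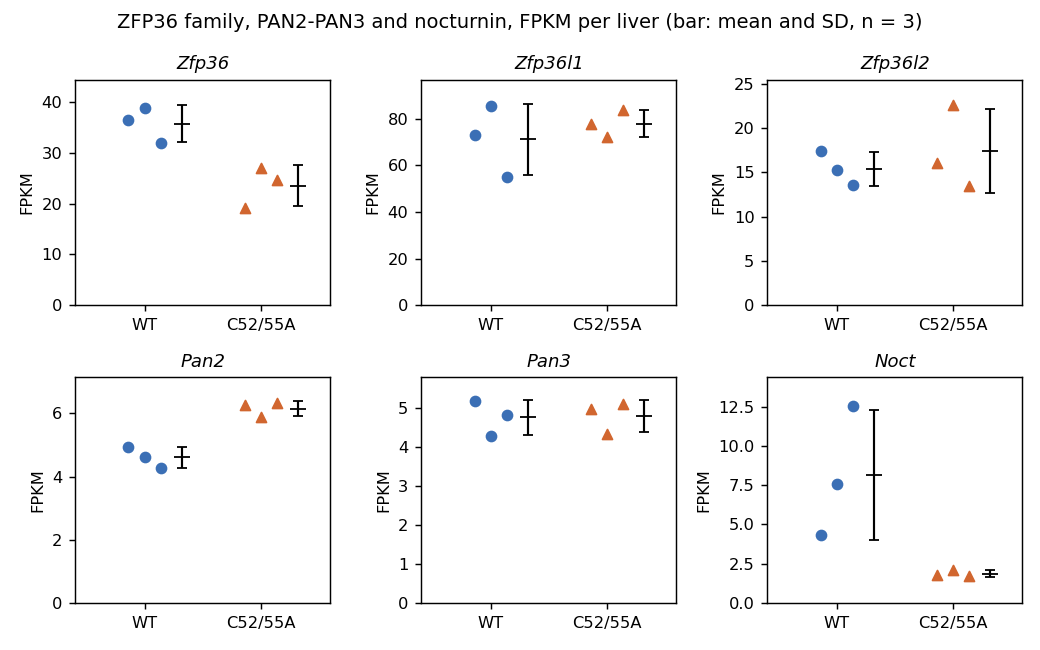
FPKM per liver of the ZFP36 family, *Pan2*, *Pan3* and the nocturnin gene *Noct*, in WT (circles) and knockin (triangles) livers, with the mean and SD beside the points (n = 3) and each axis starting at 0. *Zfp36* and *Noct* were lower in all 3 knockin livers and *Pan2* was higher in all 3, while *Zfp36l1*, *Zfp36l2* and *Pan3* overlapped.

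Deadenylation is begun by PAN2-PAN3, in which PAN2 is the nuclease and PAN3 the subunit that binds poly(A)-binding protein. *Pan2* had 4.94, 4.62 and 4.26 FPKM in WT and 6.25, 5.89 and 6.32 FPKM in knockin livers. All 3 knockin values exceeded all WT values, and the group means were 4.61 ± 0.337 and 6.15 ± 0.231 FPKM (SD, n = 3). The fold change of 0.35 (SE 0.09, 95% interval 0.14 to 0.56) missed the threshold with an adjusted p of 0.0562 from limma. It passed with median-of-ratios scaling (fold change 0.44, adjusted p = 0.0416) and with quantile scaling (fold change 0.42, adjusted p = 0.049), and in none of the other 13 alternatives, in which the adjusted p ranged from 0.051 to 0.20. *Pan3* had 5.18, 4.28 and 4.81 FPKM in WT and 4.97, 4.33 and 5.09 FPKM in knockin livers, with full overlap. The ratio of *Pan2* to *Pan3* was 0.953, 1.08 and 0.887 in WT and 1.26, 1.36 and 1.24 in knockin livers. This ratio was chosen after the values had been seen and was given no test.

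CCR4-NOT does most of the remaining tail removal. It is built on the scaffold CNOT1 and carries a pair of nuclease types, CNOT7 or CNOT8 and CNOT6 or CNOT6L. None of its 10 genes was called, the median fold change was near 0 (-0.0023, and between -0.06 and 0.09 over the alternatives, with either sign), and the estimates ran from -0.13 to 0.16. *Cnot8* had 21.8, 21.5 and 21.2 FPKM in WT and 22.3, 24.9 and 23.5 FPKM in knockin livers (fold change 0.13, adjusted p = 0.376). *Cnot7* had 11.03, 10.8 and 11.7 FPKM in WT and 12.1, 12.1 and 13.5 FPKM in knockin livers (fold change 0.16, adjusted p = 0.318). For both nucleases the knockin libraries lay above the WT libraries without overlap, by differences that did not pass the test. *Cnot10*, whose product forms a module with CNOT11 at the end of the scaffold, had 7.49, 7.26 and 7.01 FPKM in WT and 6.29, 6.77 and 6.52 FPKM in knockin livers (fold change -0.13, adjusted p = 0.394).

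The other CCR4-NOT genes overlapped between groups. *Cnot3* had 8.24, 8.23 and 7.77 FPKM in WT and 8.25, 8.30 and 7.68 FPKM in knockin livers, and the 95% interval of its fold change ran from -0.19 to 0.19. *Cnot1* ranged from 12.2 to 16.4 FPKM and *Cnot2* from 11.3 to 13.7 FPKM over the 6 livers. The ubiquitin ligase subunit *Cnot4* ranged from 3.60 to 4.72 FPKM and *Cnot11* from 5.30 to 6.29 FPKM. *Cnot8* exceeded *Cnot7* in 6 of 6 libraries, 1.90-fold on the means, and *Cnot6l* exceeded *Cnot6* in 6 of 6, 1.22-fold.

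The LSM1-7 ring binds the oligoadenylated 3′ end of deadenylated mRNA and stimulates decapping. Subunits LSM2 to LSM7 are shared with the nuclear LSM2-8 ring, which binds U6 RNA for splicing, and LSM1 is the subunit particular to the cytoplasmic ring. All 7 subunit genes had a lower estimate in the knockin liver and 0 were called, where 65.5% of all genes had a lower estimate, and the median fold change was -0.25 beside -0.08 for all genes. With median-of-ratios or quantile scaling 6 of the 7 estimates were lower, *Lsm6* being the exception, and the median was -0.16 or -0.17, respectively. With 1 library left out, the median ran from -0.28 without knockin replicate 3 to -0.18 without WT replicate 3, and 6 of 7 estimates were lower without WT replicate 1 or without knockin replicate 3. The mean of the 7 genes in a library was 13.4, 13.2 and 13.8 FPKM in WT and 11.5, 12.3 and 11.02 FPKM in knockin livers. An unadjusted p-value under 0.05 was found for 2 of the 7 (28.6%, beside 23.6% of all genes). For 3 of the 7, all lower, the groups did not overlap (42.9%, beside 22.5% of all genes), and 3 of 7 genes is too few to set the ring apart from that share.

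*Lsm1*, whose protein the study examined together with TRIM24, had 6.45, 6.94 and 8.22 FPKM in WT and 6.31, 5.23 and 6.15 FPKM in knockin livers. The groups did not overlap, although the highest knockin value lay close to the lowest WT value (fold change -0.25, 95% interval -0.51 to 0.01, adjusted p = 0.239). *Lsm2* had 14.8, 13.9 and 17.2 FPKM in WT and 11.6, 11.8 and 12.4 FPKM in knockin livers. Its fold change was -0.33 (SE 0.10, adjusted p = 0.0799), and it passed the test with TPM alone (adjusted p = 0.039). *Lsm3* had 5.50, 5.62 and 6.48 FPKM in WT and 3.55, 2.86 and 5.12 FPKM in knockin livers. Replicate 3 was nearer to WT than the other two were (fold change -0.53, SE 0.17, adjusted p = 0.0972), and without it the fold change was -0.71 with an adjusted p of 0.0201. Leaving out any other library gave no call, with a fold change of -0.38 (adjusted p = 0.143) without knockin replicate 2 and of -0.47 (adjusted p = 0.283) without WT replicate 3.

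The other 4 subunits overlapped between groups. *Lsm4* had a fold change of -0.18 (adjusted p = 0.313), *Lsm7* of -0.17 (adjusted p = 0.410) and *Lsm5* of -0.31 (adjusted p = 0.322), the last with 10.1, 9.58 and 8.11 FPKM in WT and 5.35, 8.88 and 7.98 FPKM in knockin livers. Leaving out 1 library moved these values, to -0.12 for *Lsm5* without knockin replicate 1 and to -0.07 for *Lsm7* without knockin replicate 3, and *Lsm1* moved to -0.16 without WT replicate 3. *Lsm6* had 21.3, 19.1 and 18.2 FPKM in WT and 21.6, 20.8 and 16.1 FPKM in knockin livers, with a fold change of -0.01. Reads of several subunits cannot always be placed. Of the 75-base stretches of the first annotated transcript, 59.6% in *Lsm7*, 37.1% in *Lsm5* and 15.1% in *Lsm3* also occurred in transcripts of other genes, and *Lsm1*, *Lsm2* and *Lsm4* had none. The values of *Lsm3*, *Lsm5* and *Lsm7* are therefore less certain than those of *Lsm1* and *Lsm2*.

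**Figure D4:**
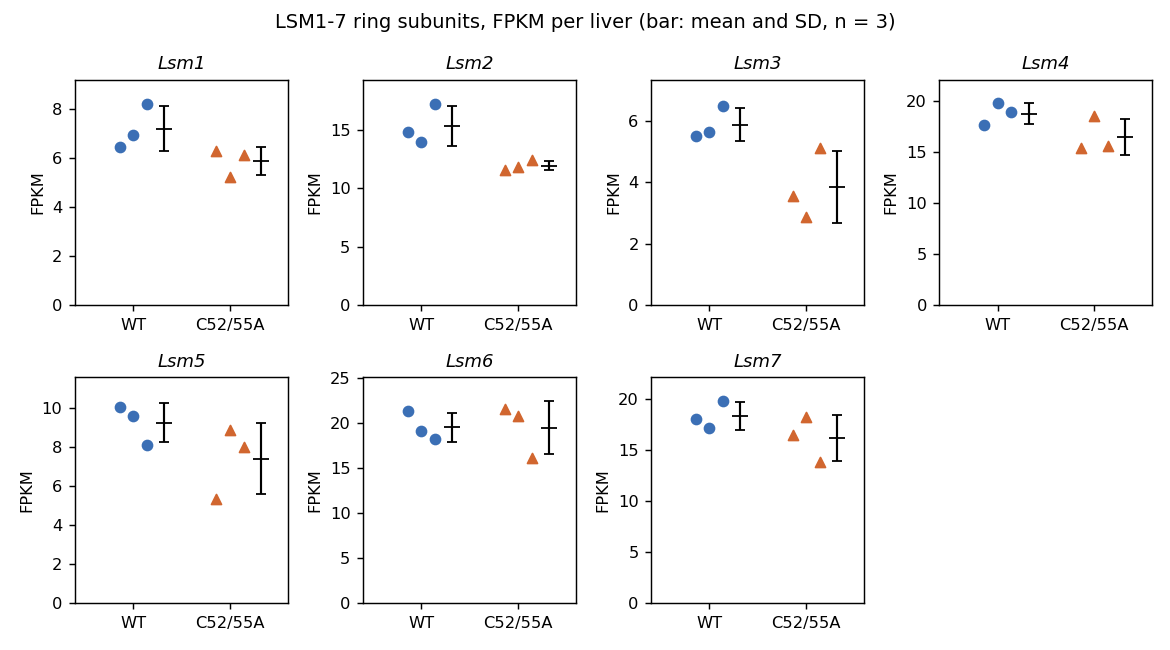
FPKM per liver of the 7 subunits of the LSM1-7 ring in WT (circles) and knockin (triangles) livers, with the mean and SD beside the points (n = 3) and axes from 0. The groups are apart for *Lsm1*, *Lsm2* and *Lsm3* and overlap for the other 4, with *Lsm6* at 19.5 FPKM in both groups on average.

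Decapping removes the 5′ cap. DCP2 is the catalytic subunit, DCP1A and DCP1B are its cofactors, and EDC3 and EDC4 are enhancers that bring the subunits together. None of these 5 genes was called, and the 5 estimates lay between -0.06 and 0.05, with 2 of 5 lower as deposited, 5 of 5 lower with TPM and 0 of 5 lower with the median of ratios. *Edc4*, a protein that the study treats as a target of the ligase, had 5.42, 4.82 and 3.69 FPKM in WT and 4.71, 5.19 and 4.09 FPKM in knockin livers. The fold change was 0.01 with a 95% interval from -0.31 to 0.33 (adjusted p = 0.970), and the WT livers alone spanned the whole range of both groups. *Edc3* was tight in WT, from 3.40 to 3.47 FPKM, and ran from 3.30 to 3.75 FPKM in knockin livers.

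*Dcp2* had 2.40, 2.43 and 2.32 FPKM in WT and 1.81, 2.91 and 2.14 FPKM in knockin livers, where replicate 2 was highest and replicate 1 lowest of all 6. *Dcp1a* had 1.40, 1.32 and 1.46 FPKM in WT and 1.23, 1.38 and 1.303 FPKM in knockin livers (fold change -0.05, adjusted p = 0.799). *Dcp1b* had 1.33, 0.801 and 0.693 FPKM in WT and 0.788, 1.42 and 0.744 FPKM in knockin livers (fold change 0.03, adjusted p = 0.942), and 1 library in each group was well above the other two. Per length, *Edc4* exceeded *Edc3*, *Edc3* exceeded *Dcp2* and *Dcp2* exceeded *Dcp1a* in 6 of 6 libraries, while *Dcp1a* exceeded *Dcp1b* in 5 of 6. The ranges of *Edc4* and *Edc3*, and those of *Dcp1a* and *Dcp1b*, overlapped.

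*Xrn1*, the exonuclease that follows decapping, had 1.21, 1.27 and 1.11 FPKM in WT and 1.05, 0.979 and 1.02 FPKM in knockin livers. The knockin values were all lower without overlap, by a fold change of -0.12 that did not pass the test (95% interval -0.35 to 0.10, adjusted p = 0.508). *Upf1*, the helicase of nonsense-mediated decay, had 13.5, 13.0 and 14.4 FPKM in WT and 12.0, 15.2 and 11.3 FPKM in knockin livers (fold change -0.09, adjusted p = 0.692). The estimate rested on single libraries, with -0.21 without knockin replicate 2 and -0.01 without knockin replicate 3.

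The P-body scaffold holds repressed mRNA in the granule. DDX6 is the helicase at its centre, LSM14A and LSM14B, PATL1 and 4E-T (*Eif4enif1*) bind it, and 0 of these 5 genes were called. *Ddx6* had 15.2, 17.4 and 15.9 FPKM in WT and 18.6, 13.8 and 18.0 FPKM in knockin livers (fold change 0.04, adjusted p = 0.877), with replicate 2 lowest of all 6 and the other two highest. *Lsm14b* had 7.53, 7.74 and 7.64 FPKM in WT and 9.37, 8.14 and 8.96 FPKM in knockin livers. Its groups did not overlap (fold change 0.18, 95% interval -0.02 to 0.38, adjusted p = 0.251). Its paralog *Lsm14a*, 1.66-fold more abundant, ran from 13.5 to 14.8 FPKM in WT and from 12.7 to 14.3 FPKM in knockin livers. *Eif4enif1* (fold change 0.02, adjusted p = 0.929) and *Patl1*, with 4.65 to 5.98 FPKM over the 6 livers, overlapped as well.

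Silencing by miRNA rests on Argonaute, which carries the miRNA, and on TNRC6 (GW182), which links Argonaute to CCR4-NOT. None of these 7 genes was called. The median fold change was 0.07, but it was -0.02 without knockin replicate 1 and -0.04 over the 5 genes that averaged at least 1 FPKM. *Ago2*, which encodes the Argonaute with slicer activity and the other protein that the study treats as a target, had 2.49, 2.33 and 2.62 FPKM in WT and 2.11, 1.95 and 2.01 FPKM in knockin livers. All 3 knockin values were below all WT values, by a fold change of -0.20 (SE 0.09, 95% interval -0.42 to 0.01, adjusted p = 0.243). *Ago1* had 5.29, 4.71 and 4.61 FPKM in WT and 4.59, 5.23 and 4.36 FPKM in knockin livers (fold change -0.04, adjusted p = 0.874). *Ago1* exceeded *Ago2* 2.13-fold, *Ago2* exceeded *Ago3* 2.29-fold and *Ago3* exceeded *Ago4* 1.64-fold, each in 6 of 6 libraries, and the ranges of the last pair overlapped.

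*Tnrc6a* had 4.85, 5.93 and 5.50 FPKM in WT and 6.65, 6.78 and 6.22 FPKM in knockin livers. Its values were higher without overlap (fold change 0.23, SE 0.10, 95% interval 0.01 to 0.46) but did not pass the test (adjusted p = 0.197). *Tnrc6c* ran from 2.20 to 2.45 FPKM in WT and from 1.83 to 2.36 FPKM in knockin livers. *Tnrc6b* ran from 1.36 to 1.61 FPKM in WT and from 1.496 to 1.74 FPKM in knockin livers. The order *Tnrc6a*, *Tnrc6c*, *Tnrc6b* was the same in 6 of 6 libraries, with ranges that did not overlap.

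The tables give each gene a genomic interval, and for some genes it is far longer than the gene. It was over 1.5 times the GENCODE M21 length for 10 of the 42 genes (23.8%, beside 22.2% of all genes tested). The widest was that of *Dcp1b*, 634 kb on chromosome 6 against an annotated 46.4 kb, which also holds the calcium channel gene *Cacna1c*. The interval of *Dcp1a* was 518 kb on chromosome 14 against 47.5 kb and holds *Cacna1d* and *Chdh*, and that of *Cnot7* was 211 kb on chromosome 8 against 23.3 kb and holds *Mtmr7*, *Vps37a* and *Zdhhc2*. *Zfp36* had 15.9 kb on chromosome 7, from 28376784 to 28392708, against 3.47 kb, and this stretch holds *Med29*, a Mediator subunit on the same strand. The other wide intervals belonged to *Eif4enif1*, *Lsm3*, *Tnrc6a*, *Cnot3*, *Xrn1* and *Upf1*, at 1.72 to 3.19 times the annotated length.

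The genes inside these intervals had values of their own that often differed from those of the gene named. *Med29* had 6.69, 7.30 and 7.36 FPKM in WT and 7.29, 7.16 and 6.45 FPKM in knockin livers (fold change -0.03, adjusted p = 0.897), and did not share the lower level of *Zfp36*. *Chdh*, a choline dehydrogenase gene, had 28.4 to 35.5 FPKM where *Dcp1a* had 1.23 to 1.46. *Cacna1c* had at most 0.0773 FPKM where *Dcp1b* had 0.693 to 1.42. *Atr*, beside *Xrn1*, had a fold change of -0.22 (adjusted p = 0.280). Of all genes tested, 6.92% of those with a wide interval and 7.95% of the others were called, and whether the interval entered the FPKM was not tested.

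**Figure D5:**
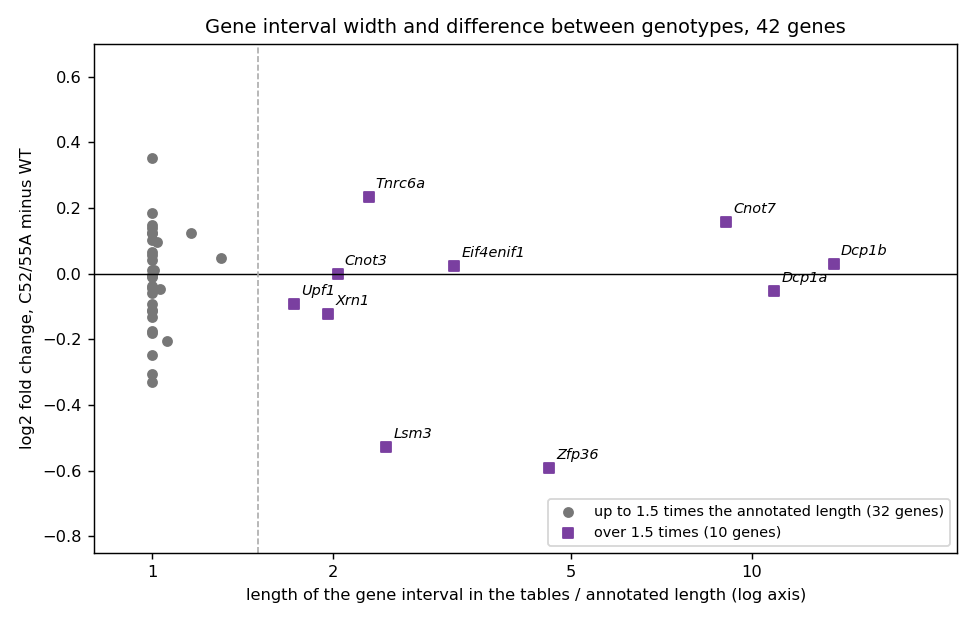
Length of the interval in the tables divided by the annotated length of the gene (log axis) against the log2 fold change, knockin minus WT, for the 42 genes. The 10 genes over 1.5 times (squares, named) include *Zfp36* and *Lsm3* at the bottom as well as *Dcp1a* and *Dcp1b* near 0.

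Shared sequence touches a few more genes. In *Zfp36l1*, 53.6% of the 75-base stretches occurred in transcripts of other genes, and the lincRNA *Gm26669* on the opposite strand overlaps 55.9% of its exon bases. *Gm26669* had a mean of 1.88 FPKM in WT and 3.70 FPKM in knockin livers (fold change 0.71, adjusted p = 0.051). Whether the counting used strand is not given in the sources used here, so the level of *Zfp36l1* is uncertain by that overlap. *Cnot3* shared 26% of its stretches and *Edc3* 20.3%, the latter with *Clk3* on the opposite strand.

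Of 83 other genes of mRNA decay and silencing on a further list, 80 were tested, 2 were under the filter and 1, *Exosc6*, was not analysed here. A single gene was called, lower (1.25%, beside 7.72% of all genes), and the median fold change was -0.04 beside -0.08 for all genes. It was *Noct*, which encodes nocturnin, a rhythmic protein of the CCR4 family, with 4.34, 7.59 and 12.5 FPKM in WT and 1.76, 2.12 and 1.70 FPKM in knockin livers. The WT livers spread widely among themselves and all lay above the knockin livers (fold change -1.58, SE 0.29, adjusted p = 0.0174). The call was lost without WT replicate 2 (adjusted p = 0.0551), without knockin replicate 1 (adjusted p = 0.073) and with no filter (adjusted p = 0.0712), and was kept in 12 of 15 alternatives. The hour at which livers were taken is not given in the labels.

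Of the 80 genes, 63.8% had a lower estimate (65.5% of all genes). By family, 10 further genes listed with CCR4-NOT gave 8 lower estimates and 1 call (10%, beside 7.72% of all genes). They were *Cnot9*, genes of the BTG and TOB families, *Parn*, *Angel1*, *Angel2* and *Noct*, which was the call. This list is thus wider than the complex and its partners. The 8 genes around poly(A)-binding protein gave 3 lower and 0 called. The 12 other genes of nonsense-mediated decay had a median of -0.03 and the 18 of the RNA exosome and Ski complex a median of -0.01, with 0 called in both. Among 20 other RNA-binding recruiters 15 estimates were lower and 0 were called, and among 6 genes of miRNA biogenesis 4 were lower and 0 were called. *Prkra*, which encodes the Dicer partner PACT, came nearest, with 9.45, 8.69 and 8.50 FPKM in WT and 7.26, 6.75 and 6.91 FPKM in knockin livers (fold change -0.31, adjusted p = 0.0684). *G3bp2*, a stress granule protein gene, followed it with a fold change of -0.24 (adjusted p = 0.107). For 13 of these 80 genes the groups did not overlap (16.2%, beside 28.9% of all genes), 2 of them higher and 11 lower, a share below that of all genes.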

How the data were processed

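Sequencing was done on liver RNA of 3 WT and 3 TRIM24 C52/55A mice. Per library, a table deposited by the authors lists FPKM with each gene's identifier, name and interval. The submitters' processing notes name GRCm38, bcl2fastq, Salmon 0.14.0 and DESeq2 1.30.0, without their roles. Genes at 0 are not listed in a table and were set to 0. Interval starts count from 0, and 1 was added. FPKM keep no total count.

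Genes averaging 0.5 FPKM or more (12225) were tested as log2(FPKM + 1) with limma 3.58.1 in R 4.3.3 (mean-variance trend, Benjamini-Hochberg adjustment), checked on simulated data. Single genes also had an exact two-sided permutation test. Annotation was GENCODE M21, and promoters were RefSeq's (34 of 42 genes matched). Tables and permutations were handled in pandas 2.3.3 and numpy 2.4.6 (Python 3.11.15), and plots in matplotlib 3.10.9. The genes and lists were chosen with earlier results of these data known. Statistics were given for genes that the study blotted or silenced, that led their group, whose groups did not overlap, that were called, or that had a wide interval. *Lsm4*, *Lsm5*, *Lsm7* and *Zfp36l2* were added after their values were seen. By the study's methods the WT controls were littermates of the knockin mice. Which mice shared a litter or a sequencing run is not given in the sources used here, and p-values measure the spread between these 6 libraries.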

Additional observations from a re-analysis of the deposited data

How the results depend on the processing

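Alternatives were a pseudocount of 0.1, a filter at 1 FPKM or none, TPM, median-of-ratios and quantile scaling, no variance trend, a robust fit, the replicate block and each library left out. Of 449 values of single genes under them, 390 kept their direction and their side of the threshold, 22 lost a call, 4 gained one and 33 changed sign. Over all 42 genes, 20 changed sign in at least 1 alternative, none of them with a reported fold change over 0.15 in size. With TPM the fold change was -0.0416 for *Edc4*, -0.0021 for *Dcp1b*, -0.0191 for *Ddx6* and -0.034 for *Eif4enif1*. With median-of-ratios and quantile scaling it was 0.0069 and 0.0041 for *Dcp1a*, 0.0884 and 0.113 for *Lsm6*, 0.0491 and 0.0311 for *Ago1*, 0.0908 and 0.0933 for *Cnot3*, and 0.0041 and 0.0079 for *Upf1*. Leaving out libraries gave -0.115 to 0.112 for *Edc4*, -0.122 to 0.168 for *Dcp1b*, -0.0336 to 0.17 for *Ddx6*, -0.064 to 0.0775 for *Eif4enif1*, -0.0847 to 0.116 for *Lsm6*, -0.0981 to 0.015 for *Ago1*, -0.0257 to 0.0308 for *Cnot3*, -0.023 to 0.288 for *Zfp36l1*, -0.0589 to 0.294 for *Zfp36l2* and -0.0615 to 0.355 for *Trim24*.

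Without a filter 347 genes were called (95 higher, 252 lower), with 0 of the 42 genes, 0 other decay genes and 0 immediate early genes. TPM gave 1488 (1295 lower), with 2 of the 42 and 3 other decay genes, all lower. Median-of-ratios and quantile scaling left 406 and 378 lower genes, and 1 of the 42 called higher (*Pan2*), 0 called lower and 0 immediate early genes. Without a variance trend 0 of the 42 and 0 immediate early genes were called. Leaving out 1 library gave 294 to 1280 calls, 88 to 239 higher and 202 to 1041 lower, with 0 or 1 of the 42, 0 to 3 other decay genes and 0 to 3 immediate early genes. The lowest count was without TRIM24 C52/55A replicate 1 and the highest without replicate 2.

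Same-numbered mice of both genotypes did not deviate together (correlations -0.12, -0.10 and 0.0027 across genes). Mice of different numbers had correlations from -0.05 to 0.14. With 3 libraries per group such values cannot tell whether any mice shared a litter or a run, and the main fit used no pairing. With the replicate block 578 genes were called (422 lower), with 0 of the 42 and 3 immediate early genes. The depth behind *Dcp1b*, *Lsm3* and *Lsm5* was the lowest of the 42.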
